A study of Mus musculus with 28 samples.

Results

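The replication and mitosis genes are 36 genes whose products copy DNA and separate chromosomes: the Mcm2 to Mcm7 helicase subunits, Pcna, Rrm2 and Tyms for DNA synthesis, 6 cyclins and Cdk1, and the kinases, motors, kinetochore proteins and chromatin proteins of mitosis. They were taken as a list by name, and each gene was read from the probe set annotated to it alone with the highest mean over the arrays of its type. In liver and quadriceps 35 of the 36 were measured, among 19928 genes, and in heart and gastrocnemius 33, among 30063 genes. Ccnb1 had no probe set annotated to it alone in either table and is not analysed here. On the second array type the probe sets of Mcm7 and Ccnd1 are shared with microRNA genes, and their values are given apart from the fit.

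The study compared female C57BL/6J mice, an inbred strain, at 24 months (103 weeks) and at 6 months (24 weeks) of age. The animals lived in groups on a standard chow diet and fasted overnight before tissues were taken, and no other treatment or allele is named. Each age had 3 arrays of liver and 3 of quadriceps (thigh), and on another array type 4 of heart and 4 of gastrocnemius (calf), which makes 28 arrays of whole-tissue RNA. Nothing in the labels ties an array to an animal, so the p-values rest on a spread between arrays that may be technical. In whole tissue, fewer cells of a type and less RNA per cell cannot be told apart.

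The values are log2 expression after robust multi-array averaging (RMA), and 1 unit on this scale is a 2-fold difference. Hepatocyte markers averaged 13.71 to 13.78 in the liver arrays, skeletal muscle markers 13.42 to 13.55 in quadriceps and 12.97 to 13.19 in gastrocnemius, and cardiomyocyte markers 11.91 to 11.98 in heart. 1 liver array stood apart: replicate 2 at 24 months had a mean of 9.45 over 6 markers of the exocrine pancreas, against 6.12 to 6.61 in the other 5 liver arrays. The count of genes of the list that passed in liver, the list's median and Melk are therefore also given without that array. The number of arrays limits the precision of every value, since array values carry no count of molecules.

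Most of these genes are read only while a cell prepares to divide. Early genes, such as those for the Mcm helicase and for nucleotide synthesis, are switched on by E2F factors as a cell commits to copying its DNA. Late genes, such as those for Cdk1, Plk1 and the spindle proteins, are switched on before mitosis through CCAAT boxes and the cell cycle homology region (CHR). Hepatocytes of the adult liver and the nuclei of adult heart and limb muscle are mostly out of the cycle, and dividing cells in such tissues include blood-borne, endothelial and stem cells.

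The start regions of 4 genes are shown for these elements. Mcm5 and Rrm2 are early genes that separated the ages in liver, and Prc1 and Mki67 are late genes that did so in quadriceps. Mcm5 also separated them in quadriceps and Mki67 in liver, so the 4 do not divide early from late genes by tissue. These genes were chosen after their values were seen. Each runs from 250 bases before to 50 bases after the start of the gene (RefSeq, GRCm38.p6), on the strand of the gene, with matches in capitals.
Mcm5, chr8:75109259-75109558, plus strand: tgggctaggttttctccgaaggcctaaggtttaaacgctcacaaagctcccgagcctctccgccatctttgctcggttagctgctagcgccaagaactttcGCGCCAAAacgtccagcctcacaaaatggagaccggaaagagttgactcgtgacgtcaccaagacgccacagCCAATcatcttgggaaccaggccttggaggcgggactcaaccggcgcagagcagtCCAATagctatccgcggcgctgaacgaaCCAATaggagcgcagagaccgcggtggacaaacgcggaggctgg
Rrm2, chr12:24708004-24708303, plus strand: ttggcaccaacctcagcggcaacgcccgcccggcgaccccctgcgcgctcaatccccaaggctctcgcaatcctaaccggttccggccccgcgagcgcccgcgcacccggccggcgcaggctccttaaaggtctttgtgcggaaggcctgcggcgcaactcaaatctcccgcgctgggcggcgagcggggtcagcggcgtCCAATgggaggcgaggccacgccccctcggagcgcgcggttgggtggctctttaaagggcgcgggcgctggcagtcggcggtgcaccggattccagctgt
Prc1, chr7:80294201-80294500, plus strand: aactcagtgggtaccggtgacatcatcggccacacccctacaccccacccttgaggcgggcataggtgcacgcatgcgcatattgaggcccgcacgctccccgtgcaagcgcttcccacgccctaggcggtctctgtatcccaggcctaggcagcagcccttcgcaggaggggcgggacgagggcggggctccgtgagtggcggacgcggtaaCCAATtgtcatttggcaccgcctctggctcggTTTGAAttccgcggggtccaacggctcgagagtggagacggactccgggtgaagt
Mki67, chr7:135716330-135716629, minus strand: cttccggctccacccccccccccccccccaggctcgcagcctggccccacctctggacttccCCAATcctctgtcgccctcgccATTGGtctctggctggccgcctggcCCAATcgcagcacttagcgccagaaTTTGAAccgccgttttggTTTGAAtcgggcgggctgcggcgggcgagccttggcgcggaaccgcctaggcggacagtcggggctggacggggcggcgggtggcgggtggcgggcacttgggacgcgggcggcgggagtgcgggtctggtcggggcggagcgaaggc
The letters searched on both strands were TTTGGCGC or TTTCCCGC for E2F, TTTGAA for the CHR and CCAAT for the CCAAT box. No motif contains another, though neighbouring matches can share a base. Prc1 has a CCAAT box 37 bases and a CHR 5 bases before its start, whereas Mki67 has CHR matches 116 and 98 bases and CCAAT boxes 188, 166 and 141 bases before. Mcm5 has its E2F match 149 bases before its start, and Rrm2 has 1 CCAAT box, 50 bases before.

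A start region was at hand for 29 of the 36 genes. A CCAAT box lay in 24 of them (82.8%, against 37.4% of all 32851 start regions) and a CHR in 15 (51.7%, against 17.9%). All 15 regions with a CHR also held a CCAAT box, a combination found in 7.0% of all start regions. The E2F letters lay in 4 (13.8%, against 1.6%), and these were Mcm3, Mcm5, Mcm6 and Mcm7. A match is a description of the letters in this window and no evidence of binding.

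Signal was low for most of the genes. Their mean was set against the array median, the middle value over all probe sets of an array, which was 6.47 to 6.62 over the liver arrays, 6.36 to 6.40 over those of quadriceps, 5.27 to 5.35 over heart and 4.88 to 4.97 over gastrocnemius. In liver 28 of 35 genes lay below it, 3 lay within 0.5 above it and 4 lay higher. In quadriceps these counts were 26, 4 and 5 of 35, in heart 17, 8 and 8 of 33, and in gastrocnemius 19, 5 and 9 of 33. Because probe sets differ in how strongly they hybridise, such a position ranks signals on an array and not amounts of RNA.

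A second mark of low signal was the olfactory receptor genes, which these tissues hardly use. The 95th percentile of their means was 6.15 in liver, 5.94 in quadriceps, 5.48 in heart and 5.06 in gastrocnemius. The array medians lay above this mark in liver and quadriceps and under it in heart and gastrocnemius. Positions against the array median are therefore not comparable between the array types. Above the olfactory mark lay 16 of 35 genes in liver, 14 of 35 in quadriceps, and 14 of 33 each in heart and gastrocnemius. Those above it in all 4 tissues were Mcm2, Mcm4, Mcm5, Pcna, the kinases Aurka and Aurkb, the mitotic cyclin Ccnb2, and Ube2c. Pcna is the sliding clamp of the DNA polymerases, and Ube2c passes ubiquitin to the targets of the anaphase-promoting complex.

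Of the 33 genes measured in all 4 tissues, 14 lay below the array median in each. They were the cyclins Ccne1 and Ccna2, Cdk1, the kinases Melk, Ttk, Bub1 and Bub1b, Cdc20, the motors Kif11 and Kif23, the spindle proteins Prc1 and Nusap1, the kinetochore motor Cenpe and the topoisomerase Top2a. Relative to that median Top2a stood at -1.91 in liver and in quadriceps, at -0.99 in heart and at -1.35 in gastrocnemius. Bub1, a checkpoint kinase, lay lowest in each tissue, at -2.31 in liver and -1.86 in gastrocnemius. Pcna alone lay more than 0.5 above it in all 4, by 2.63 in liver, 2.81 in quadriceps, 1.61 in heart and 1.94 in gastrocnemius.

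**Figure D1:**
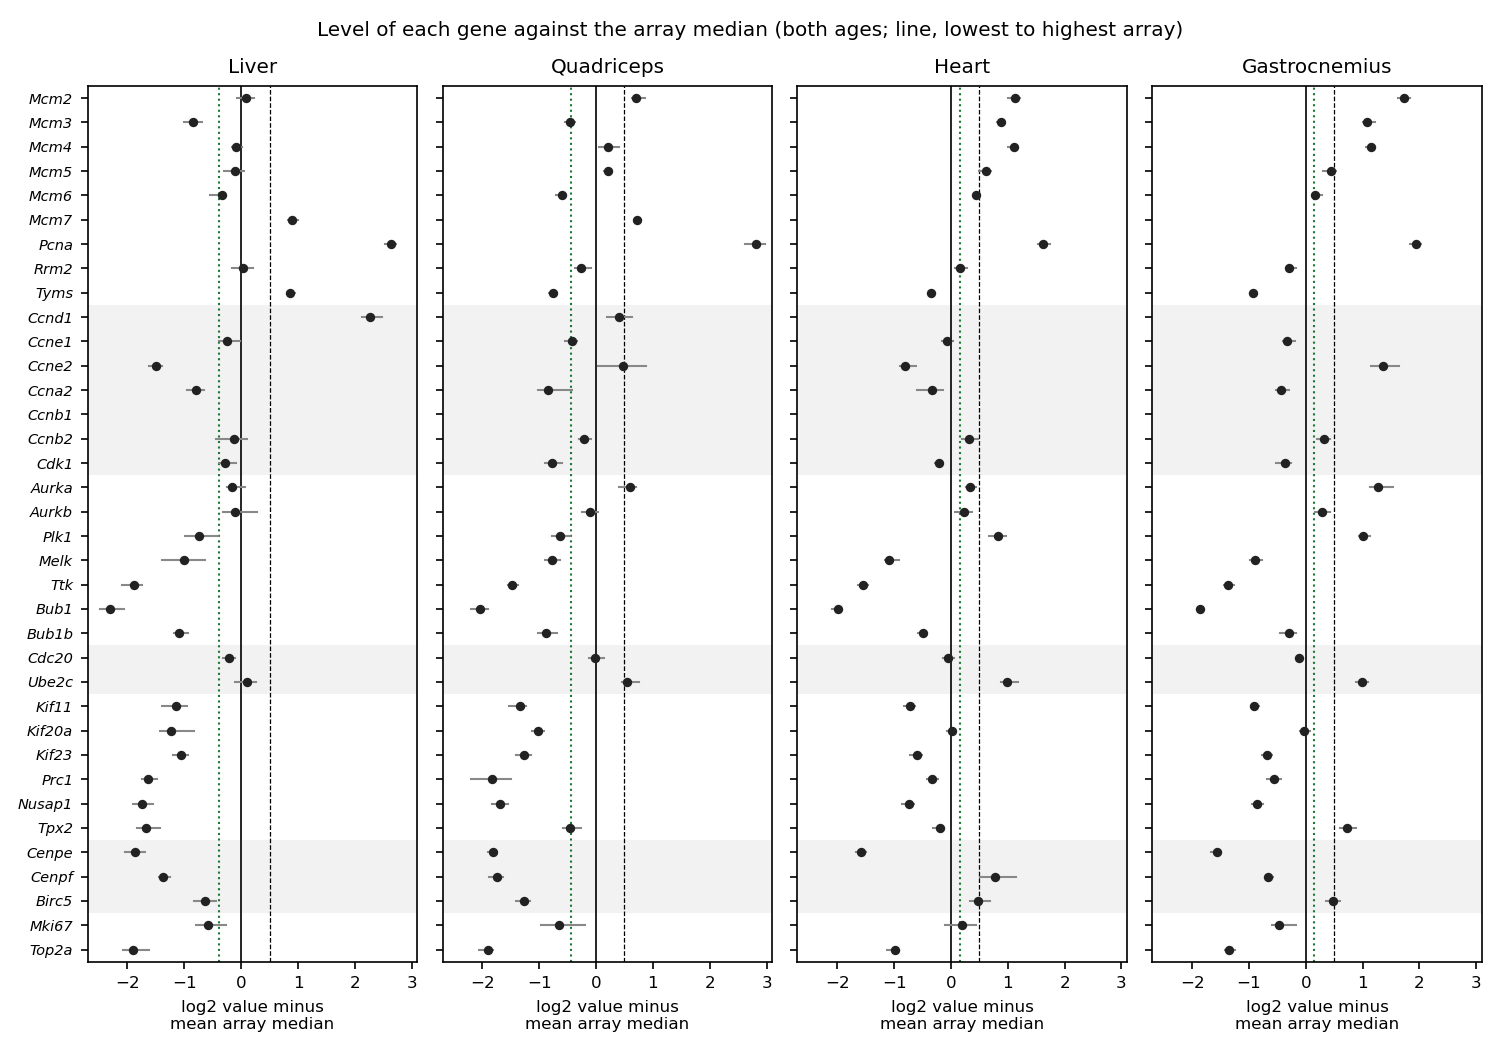
Mean log2 value of each gene over both ages minus the mean array median (points), with the lowest and highest array (lines), in 4 tissues; shading groups the genes by role. The solid line is the array median, the dashed line 0.5 above it and the dotted line the 95th percentile of the olfactory receptor genes; 28 of 35 points lie left of the solid line in liver and 17 of 33 in heart.

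No gene of the list passed an adjusted p of 0.05 between 24 and 6 months in any of the 4 tissues (limma, Benjamini-Hochberg over all genes of the tissue). Over all genes 0.326% passed in liver, 0.00502% in quadriceps, 0.00665% in heart and 0.00998% in gastrocnemius. At an unadjusted p under 0.05, 5 of 35 genes passed in liver, all higher at 24 months, against 32.8% of all genes (18.4% higher and 14.4% lower). In quadriceps 2 were higher (3.80% of all genes) and 1 was lower (3.26%), 7.06% of all genes passing in either direction. In heart 0 of 33 passed, against 5.99% of all genes (3.89% higher and 2.10% lower). In gastrocnemius 1 of 33 passed and was higher, against 16.5% of all genes (7.44% higher and 9.05% lower).

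The differences were small. On the log2 scale, 24 minus 6 months, liver differences spanned -0.17 to 0.47, quadriceps differences -0.30 to 0.51, heart differences -0.08 to 0.21 and gastrocnemius differences -0.10 to 0.13. All 95% confidence intervals lay between -0.39 and 0.72 in liver, -0.65 and 0.69 in quadriceps, -0.31 and 0.48 in heart and -0.26 and 0.27 in gastrocnemius. No gene of the list therefore had an interval that reached a 2-fold difference of array signal in either direction. These intervals are not bounds on amounts of RNA. At or under the olfactory mark, where a signal is not shown to exceed background, lay 19 of 35 genes in liver and 21 of 35 in quadriceps. In heart and in gastrocnemius 19 of 33 did.

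**Figure D2:**
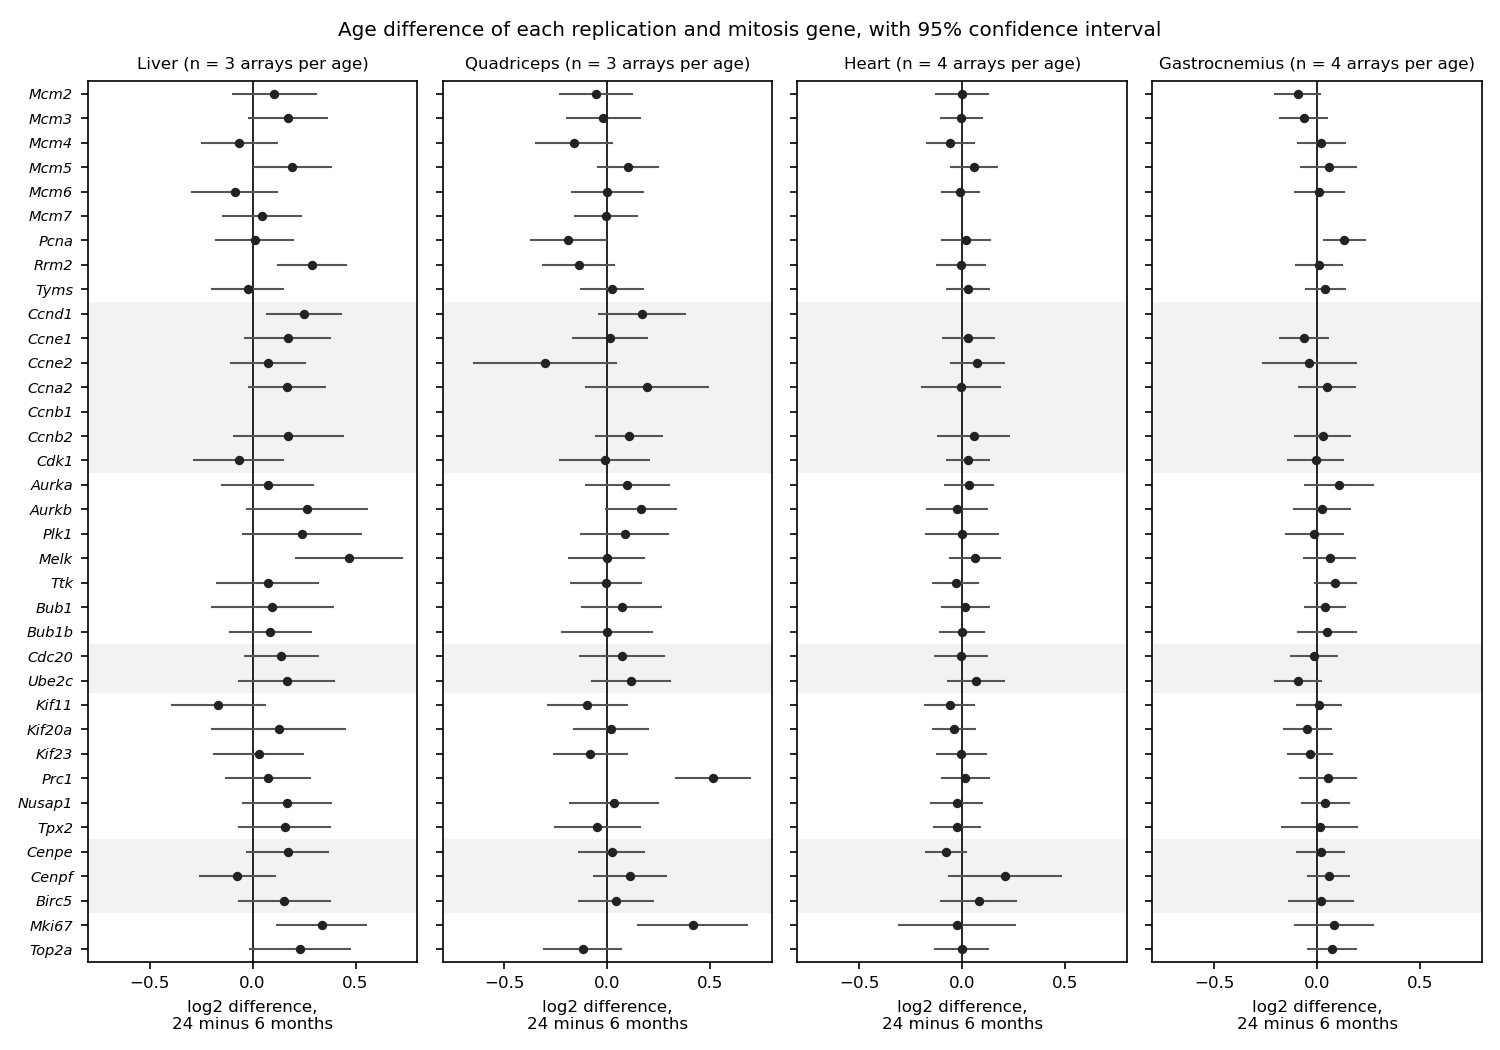
Log2 difference, 24 minus 6 months, of each gene (points) with its 95% confidence interval from limma (lines), in 4 tissues with 3 or 4 arrays per age; shading groups the genes by role and a gene without a point was not measured. The points lean right in liver, where 29 of 35 lie above 0, and lie close to 0 in heart and gastrocnemius, apart from Cenpf in heart at 0.21.

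In liver 29 of 35 genes were above 0 at 24 months, with a median difference of 0.14 against 0.03 over all genes, of which 54.3% were above 0. Most of the list sits at low signal, and at that signal most genes were above 0 in these arrays. Among the 5265 other genes with means in the interquartile range of the list (5.23 to 6.42), 83.6% were above 0 and the median was 0.18. The list's median was thus no larger than that of other genes of like level.

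Melk, a kinase of dividing cells, had the largest difference in liver. Its values were 5.84, 5.89 and 5.56 at 24 months, against 5.32, 5.43 and 5.14 at 6 months. The 3 older arrays lay above the 3 younger ones, by 0.47 ± 0.11 on average (SE), with an adjusted p of 0.058 in limma. Its mean was below the array median and under the olfactory mark.

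Rrm2, the small subunit of ribonucleotide reductase, which makes deoxynucleotides, had the next smallest p. It read 6.73, 6.70 and 6.68 at 24 months, against 6.37, 6.43 and 6.44 at 6 months. The groups did not overlap and each was tight, with a difference of 0.29 ± 0.07 (SE) and an adjusted p of 0.059 in limma.

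Mki67 encodes the Ki-67 protein, which coats mitotic chromosomes and is the usual stain for cycling cells. Its liver values were 6.26, 6.13 and 5.96 at 24 months, against 5.86, 5.75 and 5.73 at 6 months. The ages did not overlap (difference 0.34 ± 0.10, SE, adjusted p 0.068, limma). Mki67 stood at -0.58 relative to the array median in liver and under the olfactory mark. Ccnd1, cyclin D1, which responds to growth signals and lies 2.26 above the array median in liver, read 8.92, 9.01 and 8.82 at 24 months, against 8.65, 8.68 and 8.67 at 6 months. Here too all older arrays lay higher (difference 0.25 ± 0.08, SE; adjusted p 0.081, limma).

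The liver values of Top2a, Prc1 and Pcna overlapped between the ages. Top2a, which untangles DNA before mitosis, read 4.79, 4.9 and 4.51 at 24 months, against 4.52, 4.54 and 4.45 at 6 months. A second Top2a probe set, with means near 3, differed by -0.29, so the 2 probe sets disagree in direction. Prc1, which bundles microtubules between separating chromosomes, read 5.05, 4.87 and 4.87 at 24 months, against 4.97, 4.79 and 4.80 at 6 months. Pcna read 9.06, 9.19 and 9.25 at 24 months, against 9.21, 9.13 and 9.13 at 6 months, a mean difference of 0.01.

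By role, all 7 mitotic kinases and checkpoint proteins were above 0 in liver, with a median of 0.10. Of other genes at the level of the list 83.6% were above 0, with a median of 0.18. The 9 genes of licensing and DNA synthesis split, 6 above and 3 below 0, with a median of 0.05: Mcm5 (0.19) and Mcm3 (0.17) separated the ages upward, while Mcm6 (-0.09), Mcm4 (-0.06) and Tyms (-0.02) were below 0. Of the 6 cyclins and Cdk1 measured, 5 were above 0 and Cdk1 was not (-0.07). In all, 8 genes lay higher in every 24-month liver array than in any 6-month one (18.7% of all genes did) and 0 lay lower (17.4%). These shares are over genes of every level, and those of genes at the level of the list are not given here. The 8 were Melk, Rrm2, Mki67, Ccnd1, Mcm3, Mcm5, the cyclin Ccna2 and Cenpe.

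**Figure D3:**
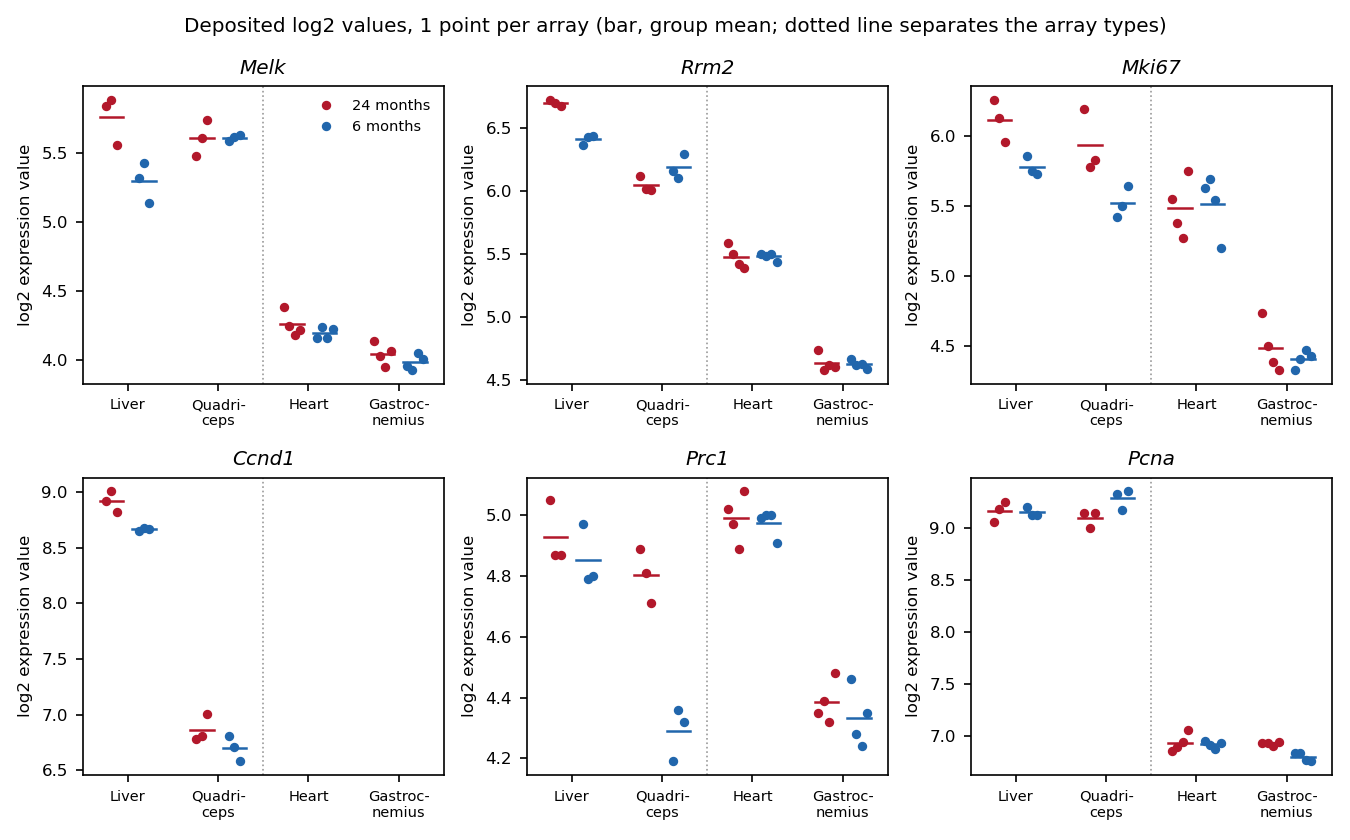
Deposited log2 values of Melk, Rrm2, Mki67, Ccnd1, Prc1 and Pcna, 1 point per array at 24 months (red) and 6 months (blue), with group means (bars); the dotted line separates the array types, whose levels cannot be compared, and Ccnd1 was not in the fit of the second. The older liver points lie above the younger ones for Melk, Rrm2, Mki67 and Ccnd1, and the older quadriceps points above the younger ones for Prc1 and Mki67.

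The size of the liver shift depended on how the arrays were scaled. The deposited liver medians ran higher in the 24-month arrays, and the mean of the list minus the array median was -0.55, -0.55 and -0.60 at 24 months, against -0.55, -0.60 and -0.56 at 6 months, which overlap. The list's median difference was 0.02 after quantile normalization, 0.03 with each array centred on its median and 0.02 after cyclic loess. Melk kept a difference of 0.31 to 0.35 under these 3 scalings, Rrm2 0.18 to 0.19 and Ccnd1 0.14 to 0.38. No gene of the list passed the threshold under any of the 3.

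**Figure D4:**
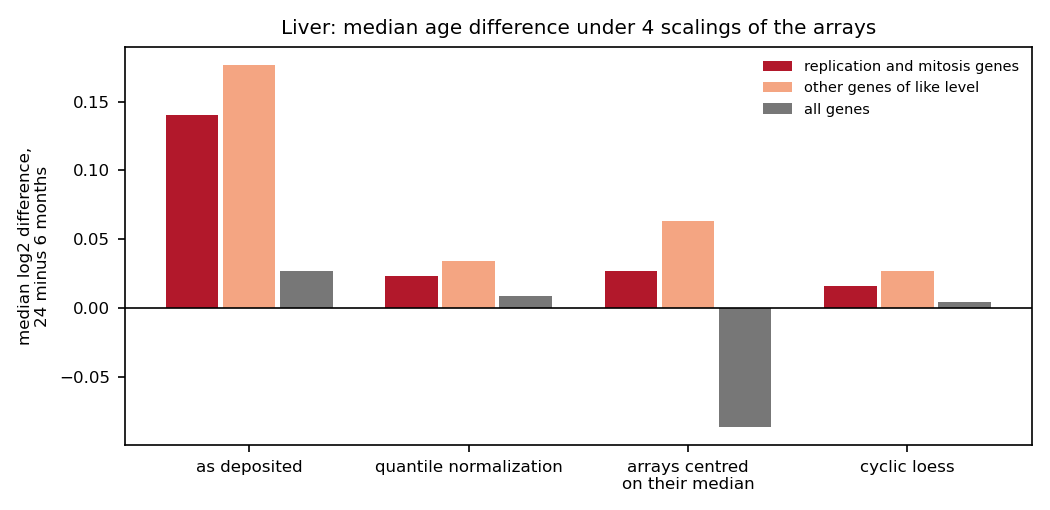
Median log2 difference, 24 minus 6 months, in liver (bars) of the replication and mitosis genes, of other genes at like level and of all genes, for the deposited values and 3 other scalings. The bar of the list is at 0.14 for the deposited values and at 0.02 to 0.03 under the other scalings, and genes of like level lie above it under all 4.

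Single arrays also decided the liver counts. Without replicate 3 at 24 months, the array in which Melk, Mki67 and Ccnd1 were lowest of the older 3, 7 genes of the list passed (Aurkb, Ccnd1, Melk, Mki67, Plk1, Rrm2 and Top2a) together with 5073 of all genes. Without replicate 2 at 24 months, the array with pancreas markers, 0 passed, the list's median was 0.11 and Melk differed by 0.40. With arrays weighted by quality, 12 genes passed, among 7897 of all genes.

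Several lists of markers of blood-borne cells also had higher means in the older livers, though no marker passed the threshold. All 10 markers of neutrophils and their precursors were above 0, with mean values per array of 5.72 to 5.89 at 24 months, against 5.48 to 5.58 at 6 months. Of the T and NK cell markers 7 of 8 were above 0 (5.94 to 6.22 at 24 months, against 5.74 to 5.87 at 6 months), and of the B and plasma cell markers 6 of 7 (6.21 to 6.66 at 24 months, against 5.86 to 6.07 at 6 months). So were 6 of 6 skeletal muscle markers, which liver does not use, at 5.93 to 6.13 at 24 months and 5.70 to 5.78 at 6 months. Macrophage markers were above 0 in 6 of 10 cases, with overlapping means (7.96 to 8.27 at 24 months, against 8.02 to 8.07 at 6 months), erythroid precursor markers in 4 of 6 and endothelial markers in 1 of 8. Among other genes at the level of the list, 83.6% were above 0. The part of these cells in the values of the list was not tested.

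Among other lists of cell cycle genes, 2 regulators passed the threshold in liver. They were 1 of 19 transcription factors and 1 of 17 brakes, against 0.326% of all genes. Mybl2, the B-Myb factor that acts on late cell cycle promoters, was higher at 24 months. Its 6-month values lay below every liver array median (6.47 to 6.62). Mybl2 read 6.61, 6.65 and 6.40 at 24 months, against 5.72, 5.98 and 5.88 at 6 months, a difference of 0.69 ± 0.10 (SE, adjusted p 0.049, limma). Cdkn2c, which encodes p18INK4c, an inhibitor of Cdk4 and Cdk6, was lower at 24 months. It read 6.74, 6.45 and 6.63 at 24 months, against 7.17, 7.32 and 7.24 at 6 months, a difference of -0.64 ± 0.10 (SE, adjusted p 0.049, limma). Neither call held after quantile normalization (adjusted p 0.059 and 0.057, limma) or when 1 of the 5 arrays other than replicate 3 at 24 months was left out, where the adjusted p lay between 0.089 and 0.172 (limma).

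Over all liver genes 54.3% were above 0, and of other genes at the level of the replication and mitosis genes 83.6% were, with a median of 0.18. Genes of like level were not drawn for the further lists that follow. Among 61 other mitosis genes in liver 0 passed, 46 were above 0 and the median was 0.11. Cep55, needed for the last cut between daughter cells, differed by 0.40 and Dlgap5, a spindle protein, by 0.49 (adjusted p 0.054 each, limma). Of 47 other replication genes 0 passed and 21 were above 0, with Orc2, of the origin recognition complex, at -0.53 and thymidine kinase Tk1 at 0.32. All 9 other G1 cyclins and kinases were below 0, median -0.27, with 0 past the threshold. Mnat1 (-0.35) and Cdk7 (-0.33), which form the kinase that activates other Cdks, had the smallest p. Of 19 factors and 17 brakes, Mybl2 and Cdkn2c were the only calls.

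In quadriceps the list as a whole did not lean, with 19 of 35 genes above 0 (52.3% of all genes) and a median of 0.02 against 0.01 over all genes. Prc1 stood out. It read 4.89, 4.81 and 4.71 at 24 months, against 4.19, 4.36 and 4.32 at 6 months. The groups were well apart, by 0.51 ± 0.08 (SE), with an adjusted p of 0.186 in limma, and it stood at -1.83 relative to the array median and under the olfactory mark. In a joint fit with liver, which shares the spread of both tissues, its adjusted p was 0.049 in limma.

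Mki67 read 6.19, 5.78 and 5.83 in quadriceps at 24 months, against 5.42, 5.50 and 5.64 at 6 months. It stood at -0.655 relative to the array median and under the olfactory mark. The ages did not overlap, though replicate 1 at 24 months was well above the others (difference 0.41 ± 0.12, SE; adjusted p 0.572, limma). That array averaged 8.82 over hepatocyte markers, against 6.41 and 6.79 in the other 24-month arrays and 7.07 to 7.54 at 6 months. Its erythroid markers averaged 6.61, against 6.22 and 6.32 in the other 24-month arrays and 6.18 to 6.33 at 6 months. Without it Mki67 differed by 0.28 and Prc1 by 0.47. Neutrophil markers averaged 5.40 to 5.53 in the 24-month arrays, against 5.20 to 5.35 at 6 months, with 8 of 10 above 0. B and plasma cell markers averaged 5.54 to 5.58 at 24 months, against 5.40 to 5.51 at 6 months. Of these 4 of 7 were above 0 and 3 below. The means of both lists separated the ages upward. Satellite cell markers (6.61 to 6.70 at 24 months, against 6.74 to 6.81 at 6 months) separated them downward, with 0 of 7 above 0. Fibroblast markers did so too (8.56 to 8.66, against 8.73 to 8.87), with 0 of 8 above 0. The part of these cells in the values of the list was not tested. Pcna went the other way, with 9.15, 9.0 and 9.15 at 24 months, against 9.33, 9.18 and 9.36 at 6 months. All older values lay below the younger ones (difference -0.19 ± 0.08, SE; adjusted p 0.683, limma).

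Aurkb, the kinase of the chromosomal passenger complex, read 6.31, 6.37 and 6.41 in quadriceps at 24 months, against 6.15, 6.14 and 6.31 at 6 months, touching at 6.31. Top2a read 4.35, 4.56 and 4.33 at 24 months, against 4.55, 4.48 and 4.57 at 6 months. Ccnd1 read 6.78, 6.81 and 7.01 at 24 months, against 6.81, 6.71 and 6.58 at 6 months. Both genes overlapped between the ages. Counting all genes of the list, 3 lay higher without overlap (6.69% of all genes), namely Prc1, Mki67 and Mcm5, and 1 lay lower (5.33%), which was Pcna. Of the 9 licensing and synthesis genes 6 had estimates below 0 and 1, Mcm6, had equal means, with a median of -0.02.

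In heart 14 of 33 genes were above 0 (55.3% of all genes) and the median was -0.0025, against 0.01 over all genes. Cenpe had the smallest p. It read 3.69, 3.72, 3.65 and 3.72 at 24 months, against 3.81, 3.80, 3.78 and 3.71 at 6 months, which overlap, with a difference of -0.08 and an adjusted p of 0.892 in limma. Cenpf, a large kinetochore protein and the only late gene more than 0.5 above the array median here besides Plk1 and Ube2c, read 5.89, 6.10, 6.45 and 6.31 at 24 months, against 5.82, 5.88, 6.08 and 6.15 at 6 months. Its difference of 0.21 ± 0.12 (SE) was within the spread of the arrays.

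The remaining named genes of heart overlapped between the ages. Mki67 read 5.55, 5.38, 5.27 and 5.75 at 24 months, against 5.63, 5.69, 5.54 and 5.20 at 6 months, a wide spread in both groups. Ccne2, a cyclin of the start of replication, read 4.55, 4.42, 4.69 and 4.53 at 24 months, against 4.49, 4.46, 4.49 and 4.46 at 6 months. Melk read 4.39, 4.25, 4.18 and 4.22 at 24 months, against 4.16, 4.24, 4.16 and 4.23 at 6 months, with the highest value in 1 older array. Top2a read 4.32, 4.39, 4.23 and 4.34 at 24 months, against 4.36, 4.38, 4.36 and 4.19 at 6 months. Prc1 read 5.02, 4.97, 4.89 and 5.08 at 24 months, against 4.99, 5.0, 5.0 and 4.91 at 6 months. Pcna read 6.85, 6.89, 6.94 and 7.05 at 24 months, against 6.95, 6.91, 6.87 and 6.93 at 6 months. No gene of the list separated the ages in heart, where 1.94% of all genes lay higher without overlap and 1.36% lower.

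Heart values for the shared probe sets were 7.19 ± 0.11 at 24 months and 7.06 ± 0.04 at 6 months for Ccnd1 with Mir3962 (SD, n = 4 each). For Mcm7 with Mir25 and Mir93 they were 6.90 ± 0.05 at 24 months and 6.93 ± 0.03 at 6 months. In gastrocnemius the Ccnd1 probe set differed by 0.0075 and that of Mcm7 by -0.0075. These 2 were not tested.

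In gastrocnemius 23 of 33 genes were above 0 (55.0% of all genes), with a median of 0.02 against 0.015 over all genes and 0.035 over the 7920 other genes of like level, 67.3% of which were above 0. Pcna had the smallest p. It read 6.93, 6.93, 6.90 and 6.94 at 24 months, against 6.83, 6.83, 6.76 and 6.75 at 6 months. The older arrays lay above the younger ones by 0.13 ± 0.04 (SE, adjusted p 0.194, limma). Pcna thus lay higher without overlap in one limb muscle at 24 months and lower in the other, on different array types, and that difference was not tested.

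Ttk, the kinase that starts the spindle checkpoint, also separated the ages in gastrocnemius, with 3.57, 3.66, 3.56 and 3.61 at 24 months, against 3.48, 3.54, 3.52 and 3.51 at 6 months. Relative to the array median it stood at -1.36 there. Mcm2 read 6.54, 6.65, 6.62 and 6.58 at 24 months, against 6.69, 6.62, 6.71 and 6.75 at 6 months. Ube2c read 5.89, 5.81, 5.89 and 5.87 at 24 months, against 6.02, 6.01, 5.93 and 5.87 at 6 months, and both overlapped. In all 2 of 33 genes lay higher without overlap (3.86% of all genes) and 0 lower (4.78%).

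Mki67 read 4.74, 4.50, 4.39 and 4.33 in gastrocnemius at 24 months, against 4.33, 4.41, 4.47 and 4.43 at 6 months, with 1 older array above the rest. That array, replicate 1, had a mean of 6.19 over the B and plasma cell markers, against 5.39 to 5.50 in the other 24-month arrays and 5.19 to 5.45 at 6 months. Its T and NK cell markers averaged 5.45, against 4.79 to 4.89 in the other 24-month arrays and 4.82 to 4.93 at 6 months. Without it Mki67 differed by -0.0033, against 0.08 with it. Macrophage markers were above 0 in 10 of 10 cases (6.37 to 6.61 at 24 months, against 6.22 to 6.32 at 6 months) and endothelial markers in 0 of 8. The part of these cells in the values of the list was not tested. Top2a read 3.67, 3.56, 3.53 and 3.67 at 24 months, against 3.51, 3.49, 3.56 and 3.58 at 6 months. Prc1, which separated the ages in quadriceps, read 4.35, 4.39, 4.32 and 4.48 at 24 months, against 4.46, 4.28, 4.24 and 4.35 at 6 months, and did not do so here. Of the other lists 0 genes passed in quadriceps, heart or gastrocnemius (limma).

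Whether the age differences differ between tissues was tested as an interaction, within an array type. No gene of the list passed between liver and quadriceps (0.0151% of all genes did) or between heart and gastrocnemius (0.595%), by limma. At an unadjusted p under 0.05, 4 of 35 passed in the first pair (19.8% of all genes) and 0 of 33 in the second (13.8%). The smallest was Rrm2, whose liver difference of 0.29 exceeded its quadriceps difference of -0.14 by 0.43 ± 0.10 (SE, adjusted p 0.090, limma). Prc1 ran the other way, with 0.08 in liver and 0.51 in quadriceps, a gap of -0.44 ± 0.12 (SE, adjusted p 0.111, limma). Melk had 0.47 in liver and -0.0033 in quadriceps (adjusted p 0.134, limma), and Top2a 0.23 and -0.12 (adjusted p 0.199, limma).

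The tissues themselves were compared at 6 months, within an array type. There 22 of 35 genes differed between liver and quadriceps, 12 higher and 10 lower in liver (limma), against 68.2% of all genes, 40.7% higher and 27.5% lower. Between heart and gastrocnemius 33 of 33 passed, 29 higher and 4 lower in heart, against 75.5% of all genes, 60.8% higher and 14.7% lower. That split leaned on scaling, since the median of all genes was itself 0.265 higher in heart: after quantile normalization 20 passed, 11 higher and 9 lower in heart. In liver against quadriceps quantile normalization gave 9 higher and 12 lower, with the median of all genes at -0.04, against 0.10 as deposited. The shares of all genes that passed after quantile normalization are not given here.

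At 6 months 4 genes were lower in both liver and heart than in the limb muscle on the same array type, in every alternative that tested them: Ccne2, Tpx2, Aurka and Mcm2. Of all genes 27.5% passed as lower in liver and 14.7% as lower in heart with the deposited values. The share of all genes lower in both is not given here. Signals under the olfactory mark are not shown to exceed background, so a difference that involves them is one of array signals. Ccne2, cyclin E2, lay above that mark in both limb muscles and under it in liver and heart. It read 5.05, 4.91 and 5.02 in liver, against 7.26, 6.96 and 6.81 in quadriceps, a difference of -2.02 ± 0.13 (SE, adjusted p 4.6e-09, limma). In heart it read 4.49, 4.46, 4.49 and 4.46, against 6.17, 6.25, 6.18 and 6.56 in gastrocnemius, a difference of -1.82 ± 0.09 (SE, adjusted p 1.3e-11, limma). In both pairs every limb muscle value lay above every value of the other tissue.

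Tpx2, which activates Aurka on the spindle, lay above the mark in gastrocnemius only. It read 4.69, 4.82 and 4.83 in liver, against 6.12, 5.80 and 5.95 in quadriceps, a difference of -1.18. In heart it read 5.12, 5.15, 5.15 and 5.09, against 5.52, 5.54, 5.74 and 5.77 in gastrocnemius, a difference of -0.52. Aurka itself differed by -0.59 between liver and quadriceps and by -0.51 between heart and gastrocnemius, with adjusted p of 7.6e-05 and 2.6e-06 in limma. Mcm2 differed by -0.54 between liver and quadriceps and by -0.26 between heart and gastrocnemius.

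At 6 months 6 genes were higher in both liver and heart in every alternative that tested them: Tyms, Cenpf, Cdk1, Prc1, Mcm6 and Kif11. With the deposited values 40.7% of all genes passed as higher in liver and 60.8% as higher in heart. The share of all genes higher in both is not given here. Prc1 and Kif11 lay under the olfactory mark in all 4 tissues, Tyms and Cdk1 in all but liver, Cenpf in all but heart and Mcm6 in quadriceps. Tyms, thymidylate synthase, read 7.48, 7.36 and 7.37 in liver, against 5.56, 5.6 and 5.66 in quadriceps. The difference was 1.80 ± 0.07 (SE, adjusted p 9.4e-12, limma). In heart Tyms read 5.01, 4.95, 4.92 and 4.93, against 3.99, 3.99, 3.95 and 3.93 in gastrocnemius, a difference of 0.99.

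Cenpf was higher by 1.75 ± 0.10 in heart than in gastrocnemius (SE, adjusted p 8.9e-11, limma), and by 0.61 in liver than in quadriceps. Mki67 was higher by 1.1 ± 0.11 in heart than in gastrocnemius (SE, adjusted p 2.4e-07, limma), while in liver its excess of 0.26 over quadriceps missed the threshold (adjusted p 0.053, limma). Ccnd1, tested on the first array type only, was higher by 1.97 ± 0.09 in liver (SE, adjusted p 6.0e-11, limma). The share of cell types in each tissue was not measured.

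**Figure D5:**
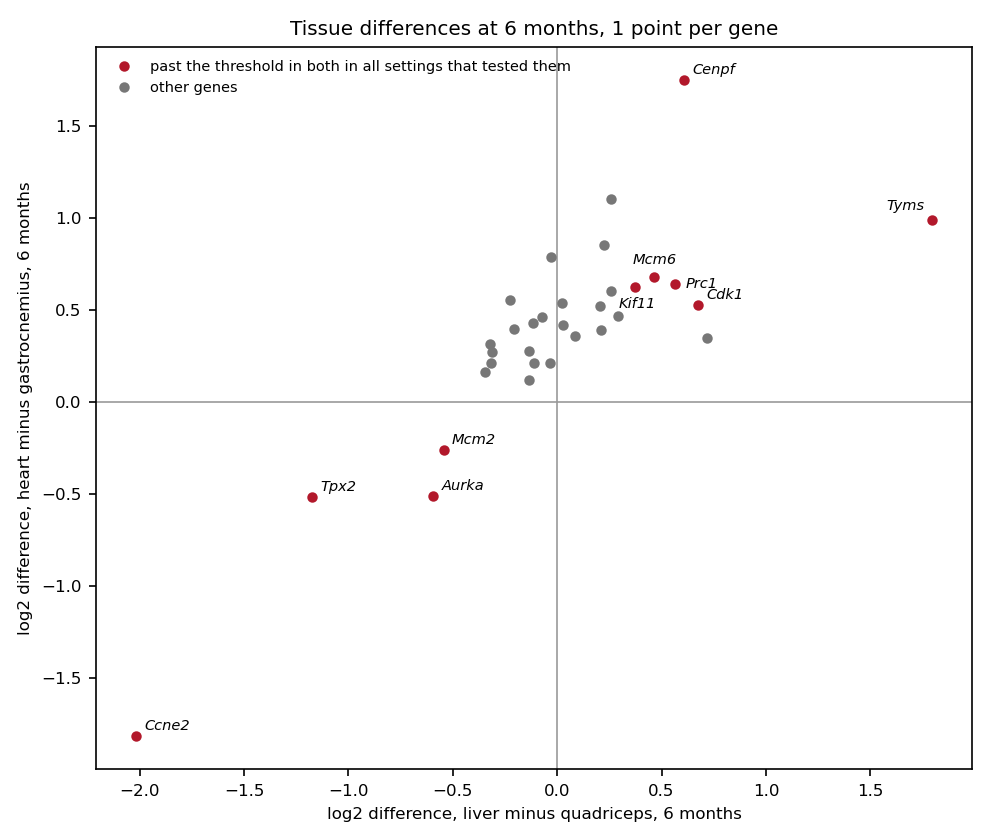
Log2 difference at 6 months, liver minus quadriceps (horizontal) against heart minus gastrocnemius (vertical), for 33 genes, many with signals under the olfactory mark in 1 or more tissues; red marks the 10 genes past the threshold in both pairs under every alternative that tested them. Ccne2, Tpx2, Aurka and Mcm2 lie at the lower left and Cenpf and Tyms farthest to the upper right. The grey cloud sits above 0 on the vertical axis, where the median of all genes was 0.265. The share of all genes past the threshold in both pairs is not given here.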

How the data were processed

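Total RNA was amplified and labelled for Affymetrix arrays, per the labels' protocols. The 2 deposited tables, 1 per array type, give each probe set's log2 expression on each array after RMA, per the submitters' processing notes; the version and which arrays were normalized together are not given in the sources used here. RMA can remove a shift common to most genes. All table columns were matched to samples by name. Exactly 1 gene symbol belongs to 21797 of the 28944 probe sets read in liver and quadriceps, and to 30604 of the 65956 read in heart and gastrocnemius; probe sets with several symbols or none were left out. Symbols were updated through a RefSeq table (GRCm38.p6) for 23 and 1135 probe sets. Each gene is its probe set of highest mean.

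Each tissue was fitted with limma 3.58.1 in R 4.3.3 (lmFit and eBayes, two-sided), 24 against 6 months, with Benjamini-Hochberg adjustment over all genes and a threshold of 0.05; adjusted p-values in the text are from these fits. Interactions and tissue differences at 6 months came from joint fits of 2 tissues. Differences under 1e-09 in size count as 0. The fits were tested on simulated data. Values per array are given for the 4 genes of smallest p per tissue and for Mki67, Top2a, Prc1, Ccnd1 and Pcna; further genes, and the tissue differences with values, were picked after seeing them. The genes and lists were chosen with earlier results of these data known.

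Other settings tried were cyclic loess with 3 iterations, quantile normalization, median-centred arrays, each gene as the mean of its probe sets, a filter that left out genes dim at both ages (mean under the overall median), an intensity trend with a robust prior, joint fits, array weights, a replicate block, unadjusted p and leaving out each array. Leaving out arrays for the tissue differences was added after seeing the data.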

Additional observations from a re-analysis of the deposited data

Results flagged for a closer look

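In groups of 4 arrays, 12 of 132 gene and group combinations had 1 array set apart from the other 3 relative to the range of the group (Dixon's test). The nominal rate of this test, about 1 in 20, holds for independent and unrounded values. Here values are rounded and the genes share arrays, so the count is not read as an excess. Values have 2 decimals and some of these gaps are as small as 0.02, so a gap can be wide for its group and small in size. In gastrocnemius at 24 months, replicate 1 read 5.20 for Mcm6 (the others 5.05 to 5.07) and 6.05 for Plk1 (5.86 to 5.89), and replicate 3 read 4.15 for Kif23 (4.23 to 4.24). In gastrocnemius at 6 months, replicate 1 read 4.73 for Ccne1 (4.58 to 4.59), and replicate 3 read 4.54 for Cdk1 (the others 4.56) and 3.96 for Kif11 (the others 4.01). In heart at 24 months, replicate 3 read 3.22 for Bub1 (3.37 to 3.38) and 4.46 for Nusap1 (4.58 to 4.59), and replicate 4 read 3.67 for Ttk (3.77 to 3.79). In heart at 6 months, replicate 4 read 5.44 for Rrm2 (5.49 to 5.50), 4.91 for Prc1 (4.99 to 5.0) and 4.19 for Top2a (4.36 to 4.38), so 3 of these values came from that array. Groups of 3 arrays were not examined in this way.

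Pcna lay lower in every 24-month quadriceps array than in any 6-month one (log2 difference -0.19) and higher in every 24-month gastrocnemius array (0.13). The tissues are on different array types and the difference between them was not tested.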

How the results depend on the processing

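In liver, where 0 genes of the list passed, the count was 5 with unadjusted p, 2 with dim genes left out (8 genes of the list tested), 3 with an intensity trend, 2 in the joint fit, 12 with array weights and 0 to 7 when 1 array was left out, 7 being without replicate 3 at 24 months. The liver median of 0.14 was 0.023 after quantile normalization, 0.027 with centred arrays, 0.016 after cyclic loess and 0.10 to 0.18 with 1 array left out. In quadriceps the count of 0 was 3 unadjusted and 1 (Prc1) in the joint fit, in gastrocnemius 1 unadjusted. The interaction of liver and quadriceps gave 1 gene (Prc1) with centred arrays, 1 (Rrm2) with dim genes left out, 4 with array weights and 0 to 3 with 1 array left out, 3 being Melk, Rrm2 and Top2a without replicate 3 of liver at 24 months. At 6 months liver against quadriceps gave 10 genes with dim genes left out and 20 to 24 without 1 array, against 22, and heart against gastrocnemius 20 after quantile normalization, 20 after cyclic loess and 20 with dim genes left out, against 33. The causes of these changes were not tested, except that leaving out dim genes tests fewer of them. Counts over all genes under these settings are given for the liver age fit only. The other changed counts are therefore not read as results about the list. With the replicate number as a block, the count stayed at 0 in each tissue, the liver median at 0.14, and the 6-month count for liver against quadriceps was 21, while Mybl2 and Cdkn2c no longer passed in liver (adjusted p 0.061 each, limma). Correlations of the deviations of equally numbered arrays ran from -0.22 in heart to 0.30 in gastrocnemius. With so few arrays per group, these values cannot tell whether equally numbered arrays share an animal or a batch. The labels do not say. Of all liver genes 65 passed as deposited, 8 after quantile normalization, 2870 with centred arrays, 93 after cyclic loess, 1819 with dim genes left out, 2243 with an intensity trend, 3625 in the joint fit, 7897 with array weights, 0 under the block and 0 to 5073 without 1 array. In liver 28 of the 35 genes lay below the array median. At or under the olfactory mark, where a signal is not shown to exceed background, lay 19 of the 35.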
